A study of Arabidopsis thaliana with 2 samples.

Results

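The pectin-modifying genes of Arabidopsis thaliana were followed in young leaves of 35S:NROB #2 plants, set against wild-type leaves. Members were all gene probes whose deposited description names a pectinesterase, pectin methylesterase, pectate lyase, pectin lyase, pectin acetylesterase (written there as 1 word) or polygalacturonase. The 303 matching probes fell on 248 loci of the 26377 loci found on the array, and 4 of the probes had no locus. The descriptions divided the loci into 64 pectinesterases, 74 pectinesterase inhibitors, 12 pectin acetylesterases, 23 pectate lyases, 36 polygalacturonases, 37 pectin lyase-like proteins and 2 polygalacturonase-inhibiting proteins.

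Pectin is the gel-forming polysaccharide of the plant cell wall, and its main backbone, homogalacturonan, is laid down in a largely methylesterified and partly acetylated form. Pectinesterases (also called pectin methylesterases) remove the methyl groups, proteinaceous inhibitors hold them back, and pectin acetylesterases remove acetyl groups. The demethylated backbone can be crosslinked by calcium, which stiffens the wall, or cut by pectate lyases and polygalacturonases, which act in leaf expansion, cell separation and the release of oligogalacturonides that signal wall damage.

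The 35S:NROB #2 plants carry a construct named for the 35S promoter of cauliflower mosaic virus, which is active in most plant tissues, and they are 1 transgenic line in the Columbia-0 background. The wild-type plants are Columbia-0, and all leaves were taken at day 30. The arrays were 2 two-colour Agilent arrays, each of which held 1 35S:NROB #2 RNA sample (Cy3) and 1 wild-type sample (Cy5), described in the labels as biological replicates. No dyes were swapped, so genotype and dye cannot be told apart. NROB was named by 0 probes, so the level of the transgene was not checked.

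Values are normalised intensities on a linear scale, and each ratio is the log2 of 35S:NROB #2 over wild type on 1 array. Over the 16955 measured loci defined next, with 1 probe each, median intensities on array 1 were 1087 (35S:NROB #2) and 1092 (wild type). On array 2 they were 1246 (35S:NROB #2) and 1243 (wild type). A gene counted as measured when at least 1 of its probes was flagged P on both arrays, and 16955 loci (64.3%) were. The brightest such probe was used. All 4 leaf markers were measured, and 0 of 12 pollen, flower, seed and root markers were, with intensities between 6.14 and 90.2. The highest of these was the floral gene PI, with 29.0 and 90.2 in 35S:NROB #2 and 6.21 and 7.49 in wild type. The leaf markers had a median log2 ratio of 0.01 on array 1 and -0.48 on array 2. The precision of every value is limited by the number of arrays. The p-values, from limma with Benjamini-Hochberg adjustment over the 16955 genes, rest only on the spread between these 2 arrays. Limma moderates each gene's spread towards a value shared by all genes. In whole leaves, fewer cells of a type and less RNA per cell cannot be told apart.

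Of the 248 pectin loci, 83 (33.5%) were measured, 11 were flagged P on 1 array and 154 on neither. Pectin acetylesterases were measured in 11 of 12 cases (91.7%) and pectate lyases in 11 of 23 (47.8%). Pectin lyase-like proteins were measured in 13 of 37 cases (35.1%), pectinesterases in 20 of 64 (31.2%), polygalacturonases in 11 of 36 (30.6%) and pectinesterase inhibitors in 15 of 74 (20.3%). Both polygalacturonase-inhibiting proteins were measured. Since a P flag needs signal in both channels, the counts below describe measured genes and not all members.

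Among the 83 measured genes, 1 passed limma at an adjusted p of 0.05, the pectinesterase PME17, which was higher in 35S:NROB #2. Over all genes 0.248% passed, 0.236% higher and 0.0118% lower. The count of 0 lower genes depends on the processing: it was 5 (6.02%) with median centring, 8 (9.64%) with loess and 6 (7.23%) with quantile normalisation. The share of all genes called lower moved with it, to 0.867%, 2.99% and 1.29% in the same order. At an unadjusted limma p under 0.05, 8 pectin genes (9.64%) were higher and 33 (39.8%) lower, against 15.5% and 17.6% of all genes. Past the fold rule (a mean difference of over 2-fold with the same sign on both arrays, which is not a test) stood 4 higher (4.82%) and 12 lower genes (14.5%), against 4.84% and 2.84% of all genes. The count of higher genes thus lay at the background, and the share of lower genes lay above it.

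The same lean to lower values held across the measured genes. On both arrays 17 genes (20.5%) were higher and 51 (61.4%) lower in 35S:NROB #2, against 37.8% and 43.3% of all genes, and 15 had opposite signs. The median log2 ratio was -0.32 over the 83 genes and -0.03 over all genes. The intensities did not overlap between the genotypes for 14 higher (16.9%) and 46 lower genes (55.4%), against 23.2% and 30.1% of all genes.

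The 2 arrays differed in size more than in direction. The median log2 ratio of the 83 genes was -0.20 on array 1 and -0.55 on array 2, and that of all genes -0.01 and -0.04. The leaf markers, given above, were also lower on array 2 than on array 1, and their part in the result was not tested. Ratios were lower on array 2 than on array 1 for 63 of the 83 genes (75.9%), and for 52.0% of all genes. The arrays' ratios correlated with a Pearson r of 0.877 across the 83 genes, which share the 4 channels and are not independent replicates. On both arrays 68 (81.9%) had the same sign. Over all genes these values were nearly the same, an r of 0.879 and 81.1%. The median SD between the arrays was 0.38 for the pectin genes and 0.14 for all genes. Counts past 2-fold rest on array 2 in large part: array 1 alone had 2 higher (2.41%) and 5 lower pectin genes (6.02%), and array 2 alone had 5 higher (6.02%) and 24 lower (28.9%). Of all genes, 3.41% were higher and 1.28% lower past 2-fold on array 1, and 6.97% higher and 6.1% lower on array 2. The share of higher pectin genes thus lay near the background on each array.

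**Figure D1:**
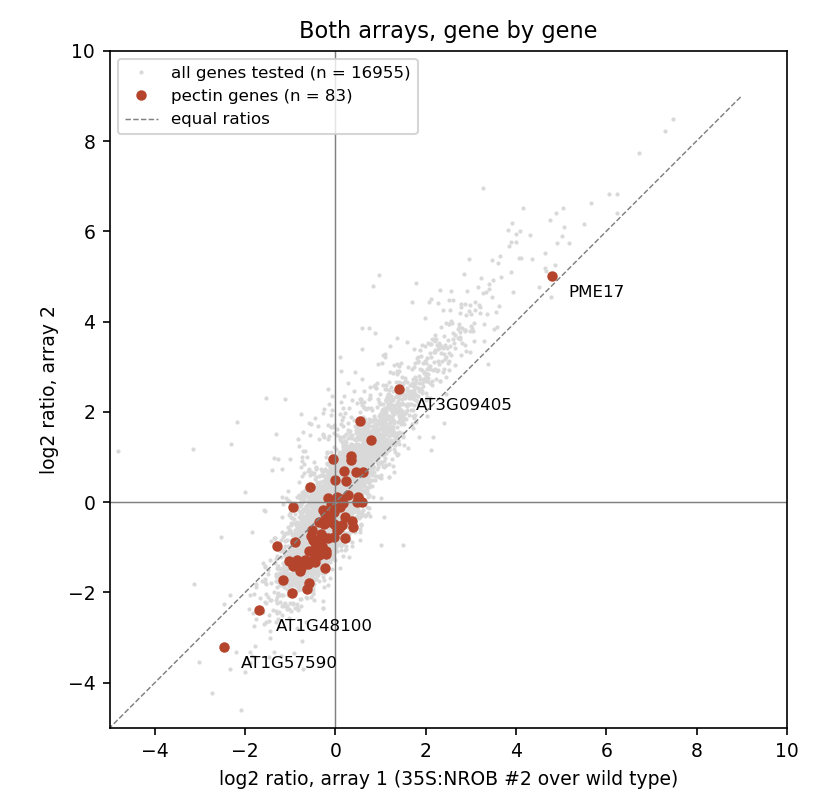
Log2 ratio of 35S:NROB #2 over wild type on array 1 (x axis) and array 2 (y axis) for the 83 measured pectin genes (red) over all 16955 genes tested (grey), with a dashed line of equal ratios. Below that line lie 63 of the pectin genes, and PME17 stands far from the other pectin genes at the upper right.

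Among the measured genes the pectinesterases had the median log2 ratio nearest to that of all genes, -0.08. On both arrays 9 of the 20 pectinesterases were higher and 10 lower. The class held 3 of the 4 genes past the fold rule in the higher direction, 15% of its 20 genes against 4.84% of all genes. In the lower direction it held 1 (5%), against 2.84% of all genes. The pectate lyases had a median of -0.50 (-0.21 on array 1 and -0.70 on array 2), with 0 of 11 higher and 7 lower on both arrays. The genes described as polygalacturonases had a median of -0.48 (-0.44 on array 1 and -0.80 on array 2), with 1 of 11 higher and 7 lower. These include PG1 and PG2, known as noncatalytic relatives. Without them the other 9 had a median of -0.29 (-0.46 on array 1 and -0.79 on array 2), with 1 higher and 5 lower. Pectin lyase-like proteins had a median of -0.36 (-0.24 on array 1 and -0.58 on array 2), with 1 of 13 higher and 10 lower. Pectin acetylesterases had a median of -0.34 (-0.23 on array 1 and -0.50 on array 2), with 2 of 11 higher and 7 lower, and pectinesterase inhibitors a median of -0.24 (-0.22 on array 1 and -0.26 on array 2), with 3 of 15 higher and 10 lower. The 2 polygalacturonase-inhibiting proteins had a median of 0.46, which was 0.17 on array 1, 0.76 on array 2 and 0.30 with the mean of each gene's probes. Differences between the classes were not tested, and each class rests on the same 2 arrays.

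**Figure D2:**
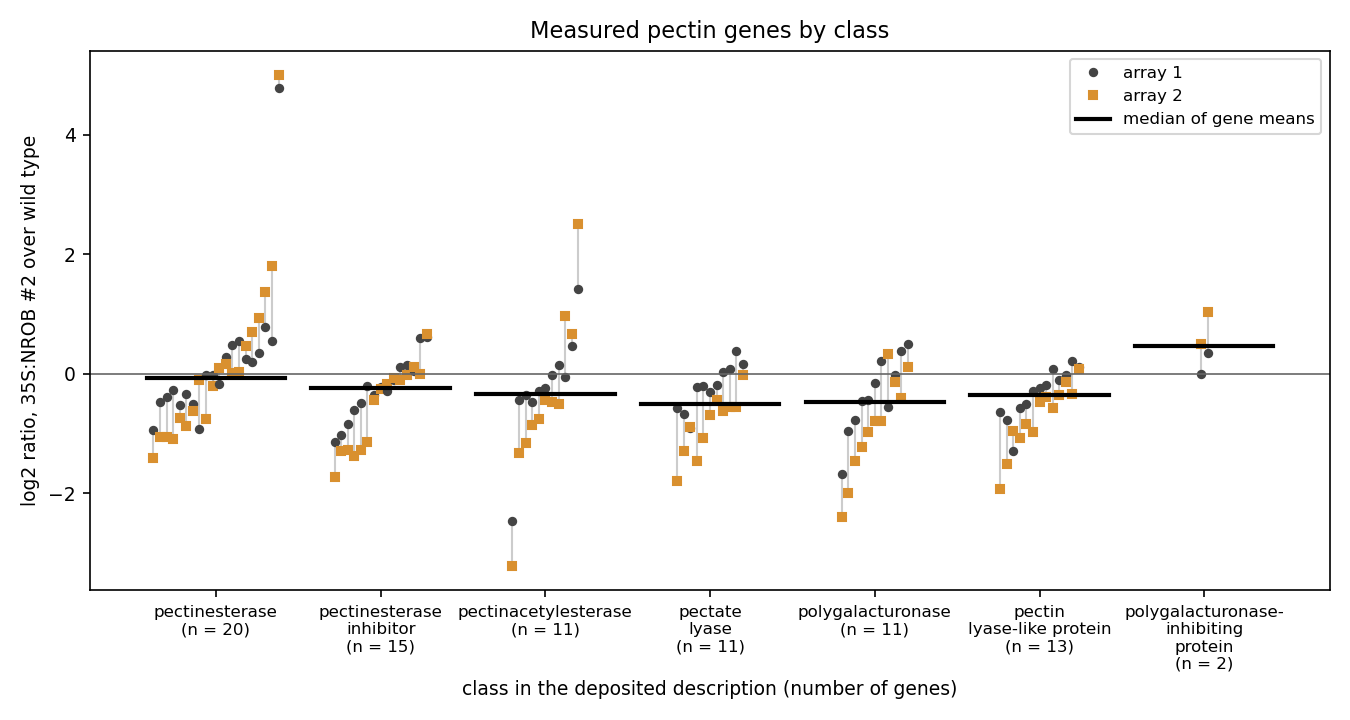
Log2 ratio of 35S:NROB #2 over wild type (y axis) for each measured pectin gene on array 1 (circles) and array 2 (squares), joined by a grey line and grouped by class, with a black line at the median of the gene means. The class medians run from -0.50 (pectate lyases) to -0.08 (pectinesterases), with the 2 polygalacturonase-inhibiting proteins at 0.46 (0.17 on array 1 and 0.76 on array 2).

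**Figure D3:**
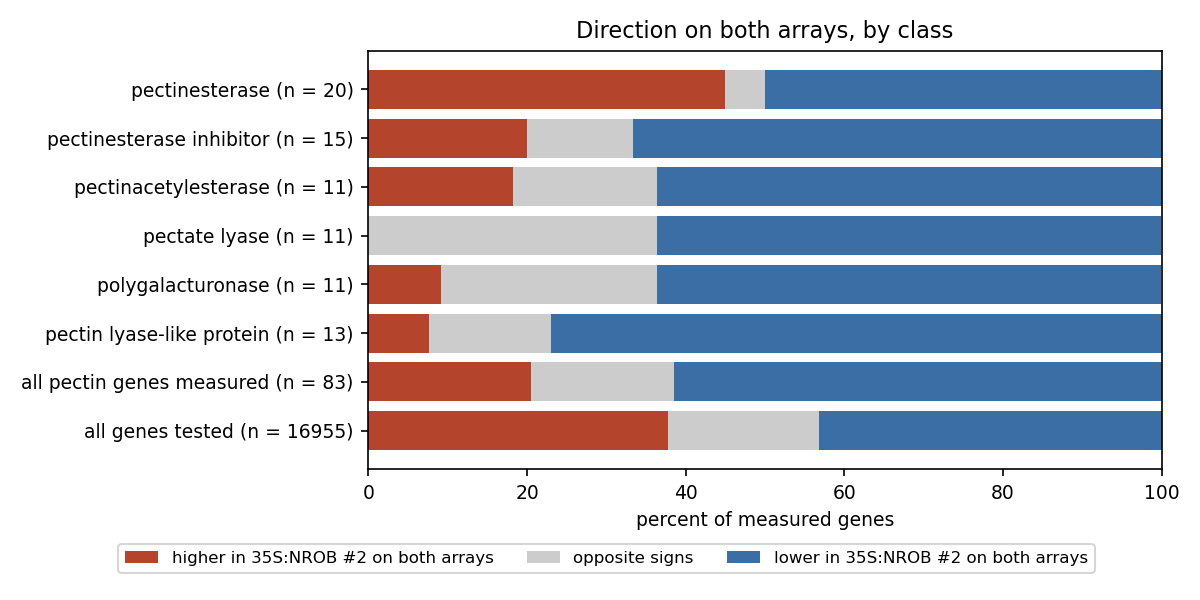
Share of the measured genes of each class that were higher or lower in 35S:NROB #2 on both arrays, or of opposite sign, above the shares of all genes (the polygalacturonase-inhibiting proteins are not drawn as a class). Lower genes make up 61.4% of the 83 pectin genes and 43.3% of all genes.

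PME17 (AT2G45220), a pectinesterase known to be induced in leaves by the fungus Botrytis cinerea, had intensities of 5567 and 10765 in 35S:NROB #2, against 201 and 336 in wild type. Both 35S:NROB #2 samples were far above both wild-type samples. It rose by 4.90 ± 0.15 on the log2 scale (SD, n = 2), a 29.8-fold difference, with a limma adjusted p of 0.0244. SBT3.5 (AT1G32940), a subtilase known to process the PME17 proprotein, stood at 239 and 363 in 35S:NROB #2 and at 86.6 and 108 in wild type. The groups did not overlap, the log2 ratio was 1.60 ± 0.20 (SD, n = 2), and the limma adjusted p of 0.0517 missed the threshold. The other subtilases of the list, SBT1.7 and SBT6.1, had log2 ratios of -0.24 and -0.02.

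The other pectinesterases past the fold rule went both ways. PME12 (AT2G26440) had 12629 and 19484 in 35S:NROB #2, against 7338 and 7523 in wild type, a log2 ratio of 1.08 ± 0.42 (SD, n = 2; limma adjusted p = 0.0711). ATPMEPCRB (AT4G02330), described as a probable pectinesterase, had 519 and 410 in 35S:NROB #2, against 355 and 118 in wild type. Neither gene's groups overlapped, but the ratio of ATPMEPCRB differed widely between the arrays, 0.55 and 1.80, with a limma adjusted p of 0.117. AT1G23200 was the lower one, with 176 and 181 in 35S:NROB #2 against 336 and 485 in wild type, a log2 ratio of -1.18 ± 0.34 (SD, n = 2; limma adjusted p = 0.0613). The next lowest pectinesterase, AT1G05310, had 187 and 166 in 35S:NROB #2 and 260 and 349 in wild type, with a log2 ratio of -0.77 ± 0.42 (SD, n = 2).

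PME3 (AT3G14310), a pectinesterase known as a susceptibility factor for necrotrophic pathogens, had 59509 and 71994 in 35S:NROB #2 against 50430 and 52182 in wild type. Its groups did not overlap and its log2 ratio was 0.35 ± 0.16 (SD, n = 2; limma adjusted p = 0.156), but its second probe went the other way, at -0.20. QRT1, a pectinesterase known to act in the separation of pollen tetrads, was flagged A on both arrays, with 9.24 and 13.6 in 35S:NROB #2 and 28.5 and 35.2 in wild type. The 14 other measured pectinesterases lay between -0.72 and 0.64, 5 of them higher and 8 lower on both arrays. Pectinesterases whose description also names an inhibitor region had a median of -0.15 over 10 genes, and the 10 without one had a median of -0.08. Those with the region held all 4 genes of the class past the fold rule. These were 3 higher (30%) and 1 lower (10%), against 4.84% and 2.84% of all genes.

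**Figure D4:**
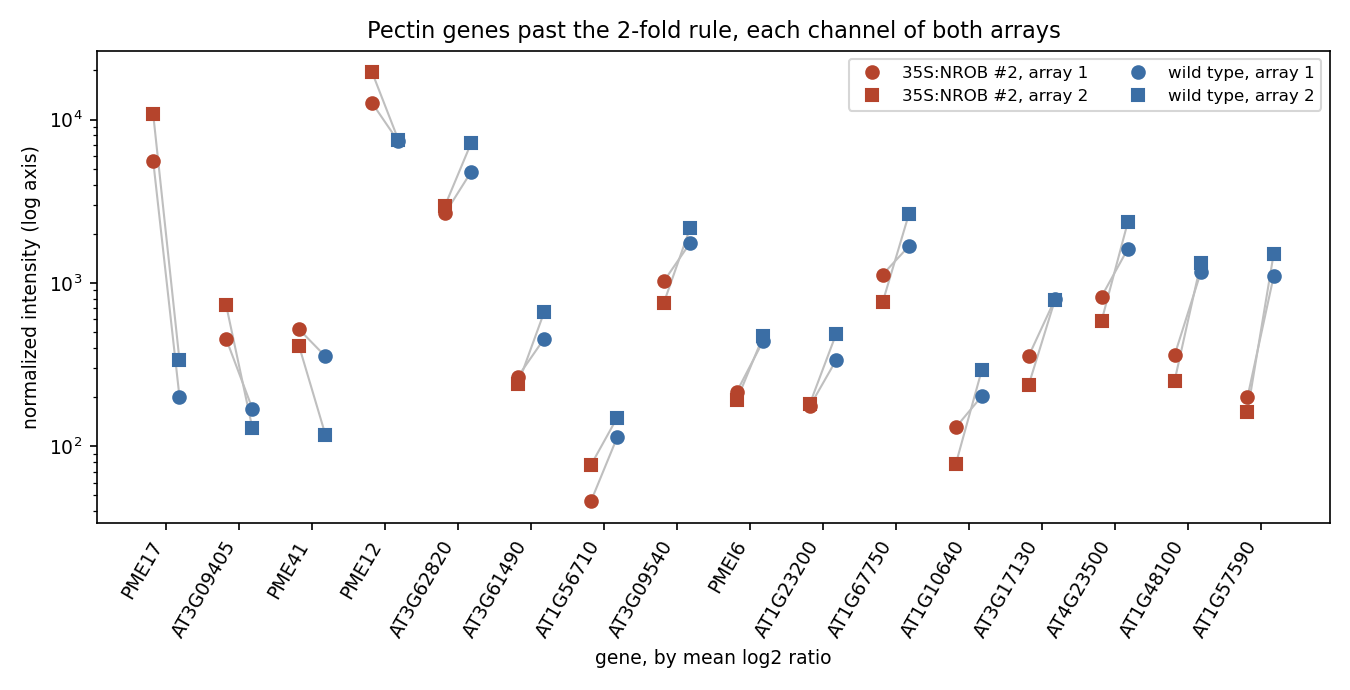
Normalised intensity on a log axis for the 16 measured pectin genes past the fold rule, with 35S:NROB #2 samples to the left of wild-type samples and 1 point per array, the points of an array joined by a line (ATPMEPCRB is drawn as PME41). The genotypes' points do not overlap for any of the 16 genes, and PME17 shows the widest gap. These genes were picked by the size of the same differences, so the lack of overlap is no separate support. Over all genes, intensities did not overlap for 23.2% (higher in 35S:NROB #2) and 30.1% (lower).

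Pectinesterase inhibitors bind pectinesterases and block them. Many genes of this class, AT3G17130 and AT3G62820 among them, are described only as invertase/pectin methylesterase inhibitor domain or superfamily proteins. Such a description does not say which enzyme is inhibited. The 3 genes of the class past the fold rule were all lower in 35S:NROB #2, which is 20% of its 15 measured genes, against 2.84% of all genes. AT3G17130 had 356 and 237 in 35S:NROB #2, against 792 and 784 in wild type, a log2 ratio of -1.44 ± 0.41 (SD, n = 2; limma adjusted p = 0.0564). PMEI6 (AT2G47670), known from seed mucilage, had 216 and 192 in 35S:NROB #2, against 440 and 470 in wild type, a log2 ratio of -1.16 ± 0.19 (SD, n = 2; limma adjusted p = 0.0544). AT3G62820 had 2665 and 2972 in 35S:NROB #2, against 4798 and 7211 in wild type, and a log2 ratio of -1.06 ± 0.30 (SD, n = 2; limma adjusted p = 0.0636). The groups overlapped for none of these 3 genes.

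Other inhibitors stayed within 2-fold. AT1G14890 was higher, with 2647 and 3050 in 35S:NROB #2 and 1726 and 1920 in wild type, and its ratios of 0.62 and 0.67 were close to each other (limma adjusted p = 0.0705). AT3G47380 had a log2 ratio of 0.30 ± 0.42 (SD, n = 2), which was near 0 on array 2. The brightest inhibitor probe, of AT5G62350, gave 38190 and 41844 in 35S:NROB #2 and 40871 and 43994 in wild type, with overlapping groups. Its chromosomal neighbour AT5G62360 had a log2 ratio of -0.40 ± 0.06 (SD, n = 2; limma adjusted p = 0.112), and all 4 of its probes were lower. The remaining 8 measured inhibitors lay between -0.99 and 0.07, 5 of them lower and 1 higher on both arrays.

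A run of 7 neighbouring inhibitor genes, AT5G46930 to AT5G46990, was flagged A on both arrays, yet 2 of its genes were bright in 35S:NROB #2. AT5G46960 had 184 and 286 in 35S:NROB #2, against 6.48 and 5.75 in wild type. AT5G46950 had 74.0 and 130 in 35S:NROB #2, against 6.71 and 5.94 in wild type. The other 5 genes of the run had at most 14.8 in 35S:NROB #2. Set against the lowest wild-type intensity flagged P (28.0 and 25.4), and averaged over the 2 arrays on the log2 scale, AT5G46960 was at least 8.58-fold higher and AT5G46950 at least 3.67-fold higher in 35S:NROB #2. On array 1 alone these bounds were 6.55-fold and 2.64-fold. They shrink to averages of 3.98-fold and 1.7-fold against the highest dimmer channel flagged A (50.1 and 66.0). Neither entered the limma fit.

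**Figure D5:**
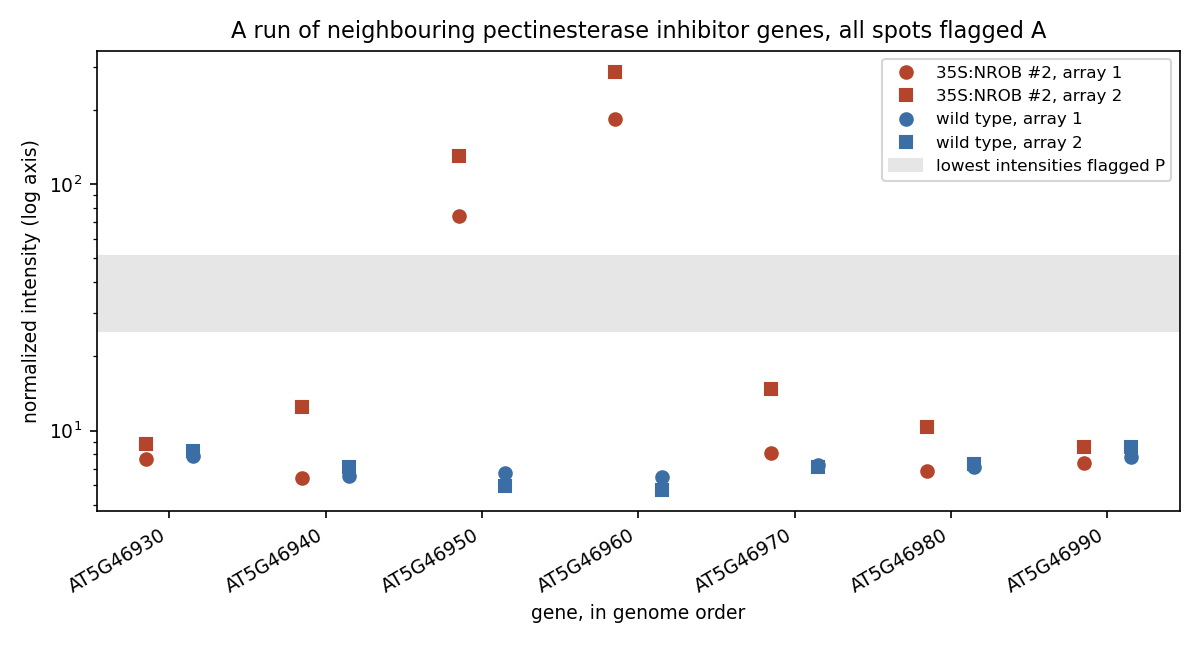
Normalised intensity on a log axis for the 7 neighbouring inhibitor genes from AT5G46930 to AT5G46990, in genome order, with 35S:NROB #2 to the left of wild type and 1 point per array. The grey band spans the lowest intensities flagged P in the 4 channels; AT5G46950 and AT5G46960 stand above it in 35S:NROB #2, and all wild-type points lie below it.

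Pectin acetylesterases held the lowest ratio of all measured pectin genes. AT1G57590 had 199 and 163 in 35S:NROB #2, against 1103 and 1512 in wild type. Both 35S:NROB #2 samples were far below both wild-type samples, the log2 ratio was -2.84 ± 0.53 (SD, n = 2), a 7.17-fold difference, and the limma adjusted p was 0.0517. AT3G09405 went the other way, with 454 and 730 in 35S:NROB #2 against 170 and 129 in wild type, a log2 ratio of 1.96 ± 0.77 (SD, n = 2; limma adjusted p = 0.0638). Its neighbour AT3G09410, also a pectin acetylesterase, had a log2 ratio of -0.34 ± 0.15 (SD, n = 2), so the ratios of these adjacent genes had opposite signs.

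PAE11 (AT5G45280) had 1560 and 908 in 35S:NROB #2, against 2129 and 2283 in wild type, a log2 ratio of -0.89 ± 0.62 (SD, n = 2; limma adjusted p = 0.114). The groups did not overlap, although the difference was much wider on array 2. PAE7 (AT4G19410) had the brightest probe of the class, with 20987 and 28532 in 35S:NROB #2 and 15222 and 17980 in wild type, and a log2 ratio of 0.56 ± 0.14 (SD, n = 2; limma adjusted p = 0.0843). Its other 2 probes stood at -0.25 and -0.19, so the direction of PAE7 depends on the probe. AT3G05910 had overlapping groups and a log2 ratio of -0.18 ± 0.46 (SD, n = 2). PAE8 and PAE9, which are known to deacetylate wall pectin, had log2 ratios of 0.46 ± 0.72 and -0.67 ± 0.27 (SD, n = 2 each), and PAE8 had opposite signs on the 2 arrays.

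Pectate lyases cut demethylated homogalacturonan by elimination. AT1G67750 had 1125 and 764 in 35S:NROB #2, against 1679 and 2645 in wild type, a log2 ratio of -1.18 ± 0.86 (SD, n = 2; limma adjusted p = 0.112). AT3G53190 had 765 and 582 in 35S:NROB #2, against 1220 and 1420 in wild type, a log2 ratio of -0.98 ± 0.44 (SD, n = 2; limma adjusted p = 0.0779). Neither gene's groups overlapped. The brightest pectate lyase probes, of AT5G63180 and AT4G24780, had log2 ratios of -0.30 ± 0.46 and -0.24 ± 0.45 (SD, n = 2 each), with overlapping groups and opposite signs on the arrays. PMR6, a pectate lyase-like gene known because powdery mildew needs it for full growth, had 3325 and 3416 in 35S:NROB #2 and 2971 and 3450 in wild type, with a log2 ratio of 0.07 ± 0.13 (SD, n = 2). The 6 other measured genes of the class lay between -0.90 and -0.09, and 5 were lower on both arrays.

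Polygalacturonases hydrolyse the same backbone. AT1G48100 had 360 and 251 in 35S:NROB #2, against 1160 and 1317 in wild type. Its groups were far apart, with a log2 ratio of -2.04 ± 0.50 (SD, n = 2), a 4.11-fold difference, and a limma adjusted p of 0.0526. AT4G23500 had 826 and 586 in 35S:NROB #2, against 1615 and 2355 in wild type, a log2 ratio of -1.49 ± 0.73 (SD, n = 2; limma adjusted p = 0.0768). AT3G61490 had 267 and 240 in 35S:NROB #2, against 456 and 664 in wild type, a log2 ratio of -1.12 ± 0.49 (SD, n = 2; limma adjusted p = 0.0752). The groups of both genes were likewise apart.

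PG2 (AT1G70370), known as a noncatalytic subunit relative rather than a polygalacturonase, had 8494 and 7047 in 35S:NROB #2, against 9477 and 12247 in wild type, a log2 ratio of -0.48 ± 0.45 (SD, n = 2). AT4G23820 had ratios of opposite sign on the arrays, 0.37 and -0.41. QRT3, known to separate pollen tetrads, had a log2 ratio of 0.30 ± 0.26 (SD, n = 2) with overlapping groups. The 5 other measured genes lay between -0.85 and -0.08, 3 of them lower on both arrays. PGX1, known for cell expansion, read between 6.46 and 7.61 in the 4 channels. The abscission and dehiscence polygalacturonases were also flagged A, with 27.7 and 41.4 in 35S:NROB #2 against 8.86 and 8.42 in wild type for ADPG1, and 11.2 and 59.4 in 35S:NROB #2 against 6.54 and 6.32 in wild type for PGAZAT (AT2G41850), described as ADPG2.

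Pectin lyase-like proteins share the fold of these enzymes, and their activities are mostly unassigned. AT1G10640 had 130 and 77.4 in 35S:NROB #2, against 203 and 295 in wild type, a log2 ratio of -1.28 ± 0.91 (SD, n = 2; limma adjusted p = 0.109). AT3G09540 had 1024 and 757 in 35S:NROB #2, against 1755 and 2168 in wild type, a log2 ratio of -1.15 ± 0.52 (SD, n = 2; limma adjusted p = 0.0760). AT1G56710 had 46.0 and 76.7 in 35S:NROB #2, against 113 and 150 in wild type, a log2 ratio of -1.13 ± 0.24 (SD, n = 2; limma adjusted p = 0.0548). The groups overlapped for none of these genes, and AT1G56710 was the 1 gene of the 12 lower ones with a wider difference on array 1. AT3G16850 and AT3G57790 had log2 ratios of -0.06 and 0.10 with overlapping groups, and the 8 remaining genes lay between -0.83 and -0.08, 7 of them lower on both arrays.

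PGIP1 and PGIP2 are leucine-rich repeat proteins of the wall that bind and restrain polygalacturonases of fungi. PGIP1 had 1635 and 2023 in 35S:NROB #2, against 1289 and 993 in wild type, a log2 ratio of 0.68 ± 0.48 (SD, n = 2; limma adjusted p = 0.125). Its groups did not overlap, but its second probe had a log2 ratio of 0.02. The adjacent gene PGIP2 had 3299 and 3678 in 35S:NROB #2 and 3324 and 2598 in wild type, with overlapping groups and a log2 ratio of 0.25 ± 0.36 (SD, n = 2).

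Genes that make, sense or act beside pectin were taken from lists. All 17 listed genes of pectin synthesis and modification were measured. Their median log2 ratio was -0.25 (-0.04 on array 1 and -0.43 on array 2). On both arrays 13 of these genes (76.5%) were lower and 0 higher, against 43.3% and 37.8% of all genes. The fold rule and limma called 0 of them, and 2 of the 17 were lower at an unadjusted limma p under 0.05, a smaller share than the 17.6% of all genes. GAUT1, the core galacturonosyltransferase, stood lowest at -0.56 ± 0.48 (SD, n = 2). The list of wall sensors and oligogalacturonide response held 8 genes, with PGIP1 and PGIP2 among them. Of the other 6, 4 were higher and 1 lower on both arrays. Limma called 0 of these 6, and at an unadjusted limma p under 0.05 there were 3 higher and 1 lower, against 15.5% and 17.6% of all genes. The wall-associated kinase WAK1, a pectin-binding receptor, had a log2 ratio of 0.96 ± 0.10 (SD, n = 2; limma adjusted p = 0.0548). OGOX1, which oxidises oligogalacturonides, had a log2 ratio of 1.05 ± 0.39 (SD, n = 2; limma adjusted p = 0.0704). RLP44, a receptor-like protein known to respond to altered pectin methylesterification, had a log2 ratio of -1.09 ± 0.43 (SD, n = 2; limma adjusted p = 0.0720). Expansins and xyloglucan endotransglucosylases, which act on other wall polymers, had a median of -0.44 over 31 measured genes of 66. On both arrays 7 (22.6%) were higher and 16 (51.6%) lower, against 37.8% and 43.3% of all genes. Past the fold rule stood 4 higher (12.9%) and 5 lower (16.1%), against 4.84% and 2.84% of all genes. Limma called 1, in the higher direction, against 0.236% of all genes. A raised share of lower genes past the fold rule was thus not particular to the pectin genes (14.5%).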

How the data were processed

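RNA of young leaves was compared on 2 two-colour arrays, each with 1 35S:NROB #2 sample and 1 wild-type sample. The submitters' processing notes name Agilent Feature Extraction 8.5.1.1. Per the file headers, the deposited values are a normalised intensity for each channel and a log2 ratio with wild type on top, which matches the log2 of the channels within 9.62e-07. Background correction and normalisation methods are not given in the sources used here. A second deposited table holds the same log2 ratio turned round, within 5.00e-06, with column medians of -0.04 and 0.02. The flag letters (P, A or M) are not explained in the files and were read from the intensities. Spots flagged P reached down to 35.1 and 51.0 in 35S:NROB #2 and 28.0 and 25.4 in wild type, while the dimmer channel of A spots went up to 50.1 and 66.0. The header of array 2's wild-type column also names the transgene, and was taken as wild type because the deposited ratio is reached with it.

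Of 43603 gene probes, 36687 had a locus through accession, locus or symbol in the RefSeq table of TAIR10.1, used for names and neighbours alone. Each locus took its brightest probe flagged P on both arrays. Ratios of 35S:NROB #2 over wild type were fitted for 16955 genes with limma 3.58.1 in R 4.3.3 (intercept, eBayes, 1 residual and 2.71 prior degrees of freedom), with Benjamini-Hochberg adjustment and a threshold of 0.05. The code was also run on data simulated from the fitted prior, which checks the code and not how well the model suits these arrays. Named genes are those past limma or the fold rule, the 2 with the largest ratio in each direction and the 2 brightest of each class, and 11 set ones. Alternatives changed the normalisation, offset, filter, probe rule and pairing, or left out 1 array. Classes follow the deposited descriptions, so VGD1, known as a pectinesterase, stands among the inhibitors. The members and lists were chosen with earlier results of these data known.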

Additional observations from a re-analysis of the deposited data

Results flagged for a closer look

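The inhibitor genes AT5G46960 and AT5G46950 were flagged A on both arrays and so lay outside the fit, although both 35S:NROB #2 channels were bright. Averaged over the 2 arrays on the log2 scale, AT5G46960 was at least 8.58-fold higher in 35S:NROB #2 and AT5G46950 at least 3.67-fold higher, against the lowest wild-type intensity flagged P. On array 1 alone the bounds were 6.55-fold and 2.64-fold. Against the highest dimmer channel flagged A the averaged bounds were 3.98-fold and 1.7-fold.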

How the results depend on the processing

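PME17 passed limma under every alternative with a test, at log2 ratios of 4.64 to 4.93. With the channels of an array paired, the limma adjusted p ran from 0.00729 (loess) to 0.0393 (genes present on at least 1 array). With no replicate block, which ignores this pairing, it was 4.28e-84, a value not comparable with the others. AT1G57590 and AT1G48100 missed the threshold in the fit reported above and with genes present on at least 1 array (adjusted p of 0.0737 and 0.0745), and passed in the other alternatives. Lower pectin genes passing limma numbered 0 in the reported fit. Of the 83 genes, 5 were called lower with median centring (6.02%, against 0.867% of all genes called lower) and 8 with loess (9.64%, against 2.99%). Quantile normalisation gave 6 (7.23%, against 1.29%), an offset of 50 gave 5 (6.02%, against 1.27%) and the mean of probes 6 (7.23%, against 0.873%). Without the lower quartile of intensity there were 2 of 56 (3.57%, against 0.676%), and with all gene probes 9 of 248 (3.63%, against 1.66%). No replicate block, that is, no pairing of the channels on an array, gave 28 of 83 (33.7%, against 8.66%). Higher pectin genes passing limma, 1 in the reported fit, numbered 4 with loess, 6 with all gene probes and 5 with no replicate block. These shares of 4.82%, 2.42% and 6.02% stand against 5.43%, 4.12% and 8.71% of all genes, and rest on few genes. Past the fold rule, 7 of 83 pectin genes were lower with the offset (8.43%, against 1.82% of all genes). Lower genes numbered 7 of 56 without the lower quartile (12.5%, against 1.92%) and 21 of 248 with all gene probes (8.47%, against 4.26%). Higher genes numbered 2 (3.57%) without the lower quartile and 16 (6.45%) with all gene probes, near the 3.67% and 6.35% of all genes. Leaving out 1 array gave 5 to 24 lower genes (1.28% to 6.1% of all genes) and 2 to 5 higher genes (3.41% to 6.97%). The cause of these differences was not tested.

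With all gene probes, which adds the loci not flagged P on both arrays, the median was -0.0146 over all pectin genes, -0.0868 for pectate lyases, -0.0181 for pectin lyase-like proteins, -0.0206 for polygalacturonases, -0.0139 for inhibitors and 0.0102 for pectinesterases. The pectinesterase median was -0.0535 with median centring, -0.0630 with loess, -0.0971 with quantile normalisation, -0.0371 without the lower quartile, -0.12 with genes present on at least 1 array and -0.0445 to -0.0242 with 1 array left out. The inhibitor median was -0.21 with loess, -0.0851 without the lower quartile and -0.32 with genes present on at least 1 array. The polygalacturonase median ran from -0.80 to -0.44 with 1 array left out. It was -0.286 without PG1 and PG2 (-0.46 on array 1 and -0.79 on array 2), a choice made after seeing the data. The median ran from -0.58 to -0.24 for pectin lyase-like proteins and from 0.17 to 0.76 for polygalacturonase-inhibiting proteins with 1 array left out. AT4G23820 turned sign with median centring, at 0.0045. The depth of signal limits what can be said of the 154 loci flagged P on neither array.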
